A study of Mus musculus with 6 samples.

Results

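The potassium channel family was examined in primary pancreatic stellate cells (PSCs), fibroblast-like cells of the mouse pancreas, kept for 120 hours at an extracellular pH (pHe) of 6.6 or 7.4. All cells came from wild-type mice (C57BL6/J WT) and were used without passaging after they had adhered to plastic. They grew in DMEM/Ham F12 with serum and antibiotics, and the amount of sodium bicarbonate set the pH of the medium, so that pH and bicarbonate cannot be told apart. Each pHe had 3 biological replicates, lettered A to C, whose RNA was sequenced, giving 6 libraries of 28904761 to 38331877 counts. The members are the genes whose symbol starts with Kcn and a further letter among the genes that the study tested, which gave 43 of 15197 genes. Of these, 42 encode pore-forming or accessory subunits, and 1, Kcnq1ot1, is a non-coding RNA. PSCs were enriched by adhesion and not by a sort, so that a culture can hold other cells.

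Potassium channels let K+ leave the cell and thereby hold the membrane potential negative. In cells that do not fire action potentials, such as fibroblasts, this potential drives calcium entry and takes part in volume control, migration and proliferation. Voltage-gated (Kv) channels open on depolarization, inward rectifiers (Kir) set the resting potential, tandem-pore (K2P, or two-pore) channels carry background currents, and calcium-activated channels couple calcium signals to the membrane potential. Several of them are gated by protons: TASK-1 closes when the outside turns acidic, and Kir4.1 and Kir4.2 close on intracellular acidification.

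The 10 markers of stellate cells and fibroblasts were present in every library, with summed levels of 37260 to 40140 CPM at pHe6.6 and 38510 to 48620 CPM at pHe7.4. These sums are mostly collagen transcripts (Col1a1, Col1a2 and Col3a1). Of the 10 markers, Dcn, Lum, Pdgfra, Pdgfrb and Des were higher at pHe6.6, Col1a1 was higher at pHe7.4 and 4 did not pass, with mean levels of Dcn of 2305 (pHe6.6) and 751 CPM (pHe7.4). Markers of other cells were also detected, and replicate A of pHe6.6 had the lowest sums of ductal, mesothelial, islet (5.90 CPM, against 17.8 to 84.3 CPM in B and C and 72.4 to 175 CPM at pHe7.4) and endothelial markers (14.8 CPM, against 20.1 to 27.6 CPM and 40.7 to 51.5 CPM). At pHe7.4, 5 of 6 endothelial markers were higher and the other, Tek, was lower by the test, and 0 of 6 islet markers passed. The 4 B cell markers summed to 8.92 CPM in replicate C of pHe6.6 and to at most 0.177 CPM in the other libraries. Fewer cells of a type and less RNA per cell cannot be told apart in bulk RNA, and the part of these cell types in the members' values was not tested.

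Among the Kcn genes, changes went in both directions. Of 43 members, 14 were higher at pHe7.4, 11 at pHe6.6 and 18 did not pass (edgeR's quasi-likelihood test, adjusted p under 0.05 over all genes). Of all genes tested, 52.3% passed (25.9% higher at pHe7.4 and 26.4% lower), so that the share of members called (58.1%) lay near the background. The median log2 fold change of the members was 0.017, against 0.011 over all genes. Positive log2 fold changes stand for more transcript at pHe7.4 and negative ones for more at pHe6.6. Past the test and an absolute log2 fold change of 0.58 were 23 of the 43 members, a share above the 29.8% of all genes. The median absolute log2 fold change was 0.943 in the members and 0.385 over all genes. The members were mostly rare transcripts, and the part of their low level in this difference was not tested. In 28 members the libraries of the groups did not overlap, as in 63.2% of all genes. The count of members higher at pHe7.4 became 9 without replicate B of pHe7.4 or without replicate C of pHe7.4.

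**Figure D1:**
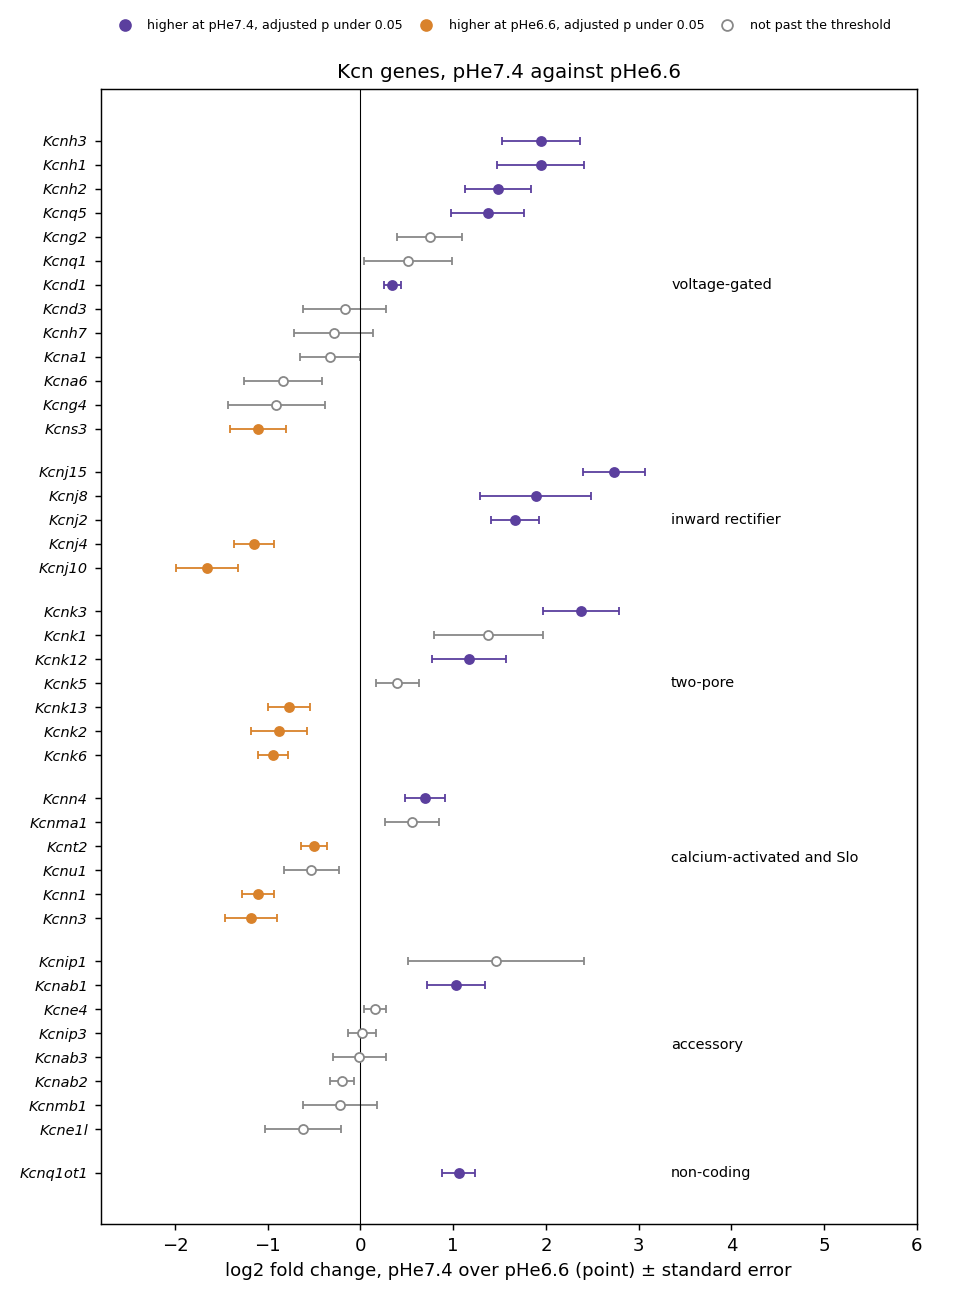
Log2 fold change (pHe7.4 over pHe6.6, horizontal axis) of 40 of the Kcn genes with its standard error, by class; filled points passed the test (purple higher at pHe7.4, orange higher at pHe6.6) and open points did not. Kcnj10 (-1.66) and Kcnj15 (2.73) are the points farthest to the left and right, all 5 inward rectifiers are filled, and 7 of 8 accessory subunits are open.

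The members were mostly rare transcripts. Their median level was 2.5 CPM (counts scaled to library size with TMM factors), against 19.5 CPM over all genes tested. Of the members, 13 were under 1 CPM, 22 were at 1 to 10 CPM and 8 were above 10 CPM. At this depth 1 count stands for 0.0261 to 0.0346 CPM before TMM scaling. On that scale a gene with a count of 0 could still lie at 0.0783 to 0.104 CPM (3 counts, from counting error alone). A gene had to reach 0.5 CPM, also before TMM scaling, in at least 2 libraries to be tested, and 9 members did so at only 1 pHe. Of these 9, 4 passed the test, among them Kcnk3 and Kcnk12 (at pHe7.4) and Kcnj10 (at pHe6.6).

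Scaled to the length of their exons, the most abundant member was Kcne4, an accessory subunit that dampens Kv currents, at 15.2 ± 2.21 CPM per kb at pHe6.6 and 16.9 ± 1.41 CPM per kb at pHe7.4 (SD, n = 3). Kcnd1 was at 4.69 ± 0.54 CPM per kb at pHe6.6 and at 5.95 ± 0.16 CPM per kb at pHe7.4. Kcnk1 was at 2.71 ± 2.04 CPM per kb at pHe6.6 and at 7.1 ± 1.28 CPM per kb at pHe7.4 (SD, n = 3). The order of the means of Kcnk1 and Kcnd1 thus differed between the groups, but in each group they differed by less than the sum of their SDs.

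**Figure D2:**
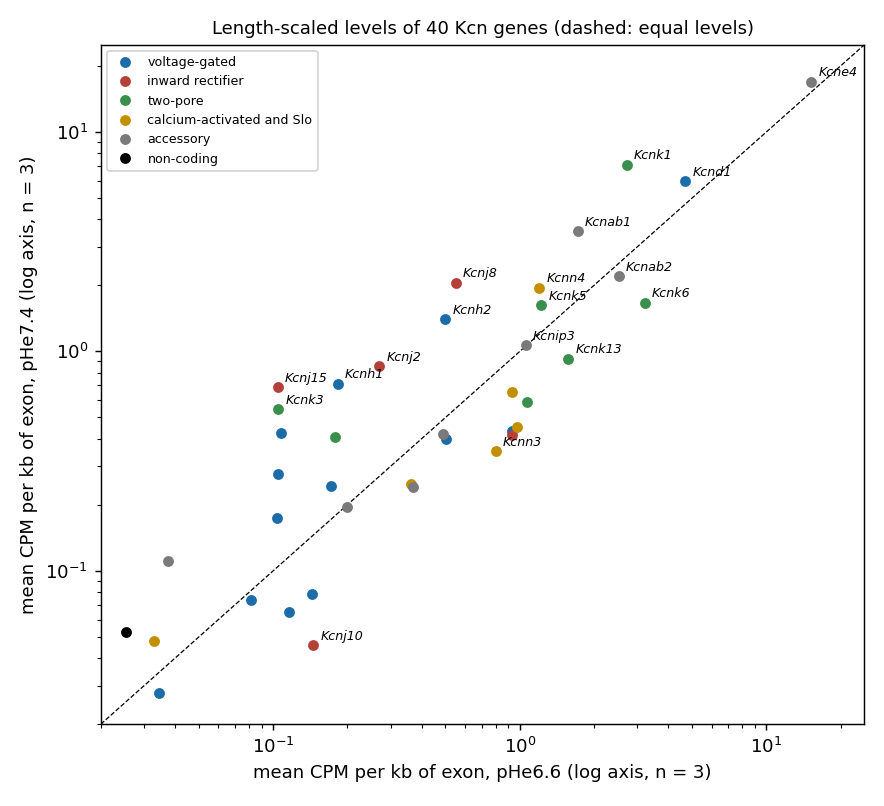
Mean level of 40 of the Kcn genes in CPM per kb of exon at pHe6.6 (horizontal) and pHe7.4 (vertical), both on log axes, with 1 point per gene coloured by class and a dashed line of equal levels. Kcne4 is highest in both groups (15.2 and 16.9 CPM per kb), and Kcnj15 and Kcnk3 lie far over the line.

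Of 16 voltage-gated subunits, 6 were higher at pHe7.4, 3 at pHe6.6 and 7 did not pass. Genes of the ether-a-go-go family, Kcnh1, Kcnh2 and Kcnh3, and the Kv7 gene Kcnq5 were higher at pHe7.4. Kcns3, the gene of a subunit that modifies other channels, was higher at pHe6.6.

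Kcnq5 encodes Kv7.5, a channel known from neurons and smooth muscle. In replicates A, B and C, in this order here and in what follows, Kcnq5 was at 0.339, 1.09 and 0.994 CPM at pHe6.6 and at 1.81, 2.54 and 2.01 CPM at pHe7.4 (log2 fold change 1.37, standard error, SE, 0.39, adjusted p = 0.020). Replicate A was the lowest at pHe6.6, and the groups did not overlap. Kcnq5 did not pass without replicate B of pHe7.4 (adjusted p = 0.067) or C (0.0506). Kcnq1, which encodes the cardiac and epithelial channel Kv7.1, did not pass (log2 fold change 0.51, adjusted p = 0.39).

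Kcns3 encodes Kv9.3, a subunit that forms no channel alone and modifies the channels it joins. It was at 3.49, 1.89 and 3.43 CPM at pHe6.6 and at 1.21, 1.14 and 1.74 CPM at pHe7.4 (log2 fold change -1.10, SE 0.30, adjusted p = 0.017). Replicate B at pHe6.6 came close to replicate C at pHe7.4, without overlap. Kcns3 did not pass without replicate C of pHe6.6 (adjusted p = 0.061), replicate A of pHe7.4 (0.059) or replicate B of pHe7.4 (0.061). Other silent subunits, Kcng2 (log2 fold change 0.75, adjusted p = 0.11) and Kcng4 (-0.91, adjusted p = 0.18), did not pass the test. Amigo1, the gene of a cell adhesion protein that associates with Kv channels, is no member of the family and was at 35.5, 24.9 and 31.5 CPM at pHe6.6 and at 9.95, 12 and 11.5 CPM at pHe7.4. Its groups were far apart (log2 fold change -1.46, SE 0.14, adjusted p = 1.7e-04).

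Kcnh1 encodes Kv10.1 (EAG1), which is restricted to few healthy tissues and found in many tumours. It was at 0.678, 2.44 and 0.904 CPM at pHe6.6 and at 6.72, 4.04 and 4.88 CPM at pHe7.4 (log2 fold change 1.95, SE 0.47, adjusted p = 0.012). Replicate B was the highest at pHe6.6 and the lowest at pHe7.4, and the log2 fold change was 2.71 without replicate B of pHe6.6. Kcnh1 did not pass when no filter on low counts was used (adjusted p = 0.053). Kcnh2 encodes Kv11.1 (hERG), which repolarizes the heart. It was at 1.32, 3.44 and 2.47 CPM at pHe6.6 and at 5.16, 9.09 and 6.15 CPM at pHe7.4 (log2 fold change 1.48, SE 0.36, adjusted p = 0.012). Replicate B was the highest library in both groups. Kcnh3, which encodes the brain channel Kv12.2, was at 0.271, 0.717 and 0.874 CPM at pHe6.6 and at 1.66, 2.42 and 3.22 CPM at pHe7.4 (log2 fold change 1.95, SE 0.42, adjusted p = 0.0064). Replicate A was the lowest in both groups. The exons of Kcnh3 overlap those of Mcrs1 on the other strand. Kcnh7, a further ERG channel, was at -0.29 (adjusted p = 0.59).

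Kcnd1 encodes Kv4.1, a channel of the transient A-type current, and was the most abundant voltage-gated member per length over both groups. It was at 26.2, 21.5 and 26.7 CPM at pHe6.6 and at 32.2, 30.5 and 31.8 CPM at pHe7.4 (log2 fold change 0.34, SE 0.09, adjusted p = 0.017). The difference was small and free of overlap, and it missed the threshold without replicate A of pHe7.4 (adjusted p = 0.0510) or C (0.0516). Kcna1, Kcna6 and Kcnd3 had log2 fold changes of -0.33, -0.84 and -0.17 and did not pass. Kcna6 passed without replicate A of pHe6.6 (-1.15, adjusted p = 0.025).

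**Figure D3:**
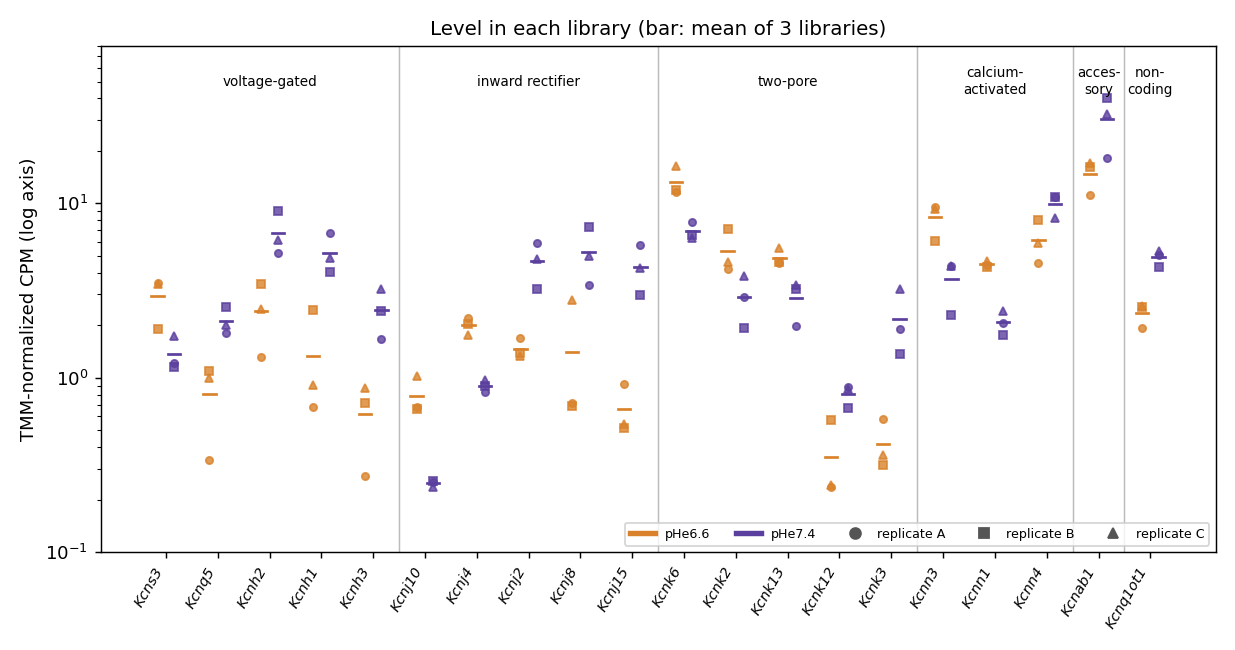
TMM-normalized CPM on a log axis in each of the 6 libraries for 20 of the 23 members past the test and a log2 fold change of 0.58, grouped by class; orange is pHe6.6 and purple pHe7.4, symbols are replicates and bars are means of 3 libraries. The 2 groups of points do not overlap for any of these genes, from Kcnj15 (0.516 to 0.915 against 2.99 to 5.77 CPM) to Kcnk12 (0.237 to 0.574 against 0.667 to 0.881 CPM). The genes were chosen by the test on these same libraries, which favours such a separation. Of all genes tested, 63.2% had no overlap.

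All 5 inward rectifiers passed the test, with Kcnj15, Kcnj2 and Kcnj8 higher at pHe7.4 and Kcnj4 and Kcnj10 higher at pHe6.6. Together the 5 genes summed to 5.28 to 7.44 CPM at pHe6.6 and to 14.7 to 16.2 CPM at pHe7.4. Kcnj15 and Kcnj10 encode close relatives, Kir4.2 and Kir4.1, and moved in opposite directions, as did Kcnj2 and Kcnj4, which encode Kir2.1 and Kir2.3.

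The 250 bases in front of the transcription start are shown for these 4 genes, since they are pairs of relatives with opposite changes. The sequences are those of RefSeq on GRCm38.p6, in the direction of transcription. Capitals mark matches on either strand to the GC box (GGGCGG), the CCAAT box (CCAAT) and the E-box (CACGTG). The positions are chr16:95257308-95257557 for Kcnj15 and chr11:111065914-111066163 for Kcnj2 (both plus strand), chr1:172340960-172341209 for Kcnj10 (plus strand) and chr15:79505242-79505491 for Kcnj4 (minus strand).
Kcnj15: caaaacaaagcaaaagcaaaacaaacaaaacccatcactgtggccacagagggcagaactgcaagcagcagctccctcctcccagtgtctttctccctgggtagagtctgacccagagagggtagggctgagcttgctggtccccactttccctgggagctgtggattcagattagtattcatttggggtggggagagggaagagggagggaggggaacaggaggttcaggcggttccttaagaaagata
Kcnj2: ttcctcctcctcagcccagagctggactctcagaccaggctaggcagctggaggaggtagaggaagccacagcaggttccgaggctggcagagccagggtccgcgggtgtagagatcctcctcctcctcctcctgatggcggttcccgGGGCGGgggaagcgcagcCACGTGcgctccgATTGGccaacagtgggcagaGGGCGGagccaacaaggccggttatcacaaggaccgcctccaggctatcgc
Kcnj10: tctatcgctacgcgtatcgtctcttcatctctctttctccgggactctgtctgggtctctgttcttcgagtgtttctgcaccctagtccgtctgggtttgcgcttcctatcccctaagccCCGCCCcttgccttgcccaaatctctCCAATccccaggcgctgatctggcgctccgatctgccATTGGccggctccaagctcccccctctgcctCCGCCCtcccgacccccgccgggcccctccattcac
Kcnj4: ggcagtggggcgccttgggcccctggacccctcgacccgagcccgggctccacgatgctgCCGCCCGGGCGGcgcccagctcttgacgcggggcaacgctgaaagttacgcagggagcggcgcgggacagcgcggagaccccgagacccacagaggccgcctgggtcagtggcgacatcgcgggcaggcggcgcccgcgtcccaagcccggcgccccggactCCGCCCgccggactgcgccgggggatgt
The window of Kcnj15, which was higher at pHe7.4, held no match and 1 CpG, and that of Kcnj2 held 2 GC boxes, 1 CCAAT box and 1 E-box among 14 CpGs. The windows of the genes higher at pHe6.6 held 2 GC boxes and 2 CCAAT boxes among 17 CpGs (Kcnj10) and 3 GC boxes among 35 CpGs (Kcnj4). A pair of the GC boxes of Kcnj4 lie side by side without sharing a letter. In the same window of 27025 genes, 32.9% held a GC box, 34.5% a CCAAT box and 6.05% an E-box. Further letters searched were TATAAA, TGACGTCA (the cAMP response element), GGAATG (TEAD factors) and the interferon-stimulated response element, and they were not in these 4 windows. Over the 31 members with a RefSeq window, the GC box was found in 14 and the CCAAT box in 11, TATAAA and TGACGTCA in 0, GGAATG in 7 (12.6% of all genes), the E-box in 3 and the interferon-stimulated response element in 1 (3.04%). TATAAA was found in 13.0% and TGACGTCA in 1.62% of all genes. These matches are letters in a window, not binding sites.

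Kcnj15 was at 0.915, 0.516 and 0.542 CPM at pHe6.6 and at 5.77, 2.99 and 4.26 CPM at pHe7.4 (ENSMUSG00000062609, chromosome 16, 95257558 to 95300260). Replicate A was the highest in both groups. Its log2 fold change was 2.73 (SE 0.34, adjusted p = 4.7e-04), the largest of all members toward pHe7.4. Kcnj2 encodes the classical strong rectifier and was at 1.69, 1.38 and 1.33 CPM at pHe6.6 and at 5.92, 3.21 and 4.82 CPM at pHe7.4 (log2 fold change 1.67, SE 0.26, adjusted p = 0.0014). The order of the replicates at pHe7.4 was that of Kcnj15, with A above C above B.

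Kcnj8 encodes Kir6.1, the pore of vascular ATP-sensitive channels, and is a marker of pericytes. It was at 0.712, 0.688 and 2.80 CPM at pHe6.6 and at 3.40, 7.31 and 5.00 CPM at pHe7.4 (log2 fold change 1.89, SE 0.60, adjusted p = 0.036). Replicate C stood apart at pHe6.6, and the log2 fold change was 2.88 without it. Kcnj8 did not pass without replicate A of pHe6.6 (adjusted p = 0.056) or B (0.0745), without replicate B of pHe7.4 (0.102) or C (0.0744), or with no filter (0.142). Per length it was the most abundant inward rectifier over both groups. Abcc9, a regulatory subunit of Kir6.1 channels, was at 13.9, 6.08 and 15.6 CPM at pHe6.6 and at 6.32, 4.89 and 9.08 CPM at pHe7.4. It did not pass the test (log2 fold change -0.81, adjusted p = 0.13). Abcc8, the gene of the related subunit, was rare, with means of 0.485 (pHe6.6) and 1.22 CPM (pHe7.4). It did not pass either (log2 fold change 1.30, adjusted p = 0.25). Across 10 markers of pericytes and smooth muscle, Abcc9 among them, the summed level was 577 to 652 CPM at pHe6.6 and 357 to 441 CPM at pHe7.4, with 3 of the genes higher and 2 lower at pHe7.4. The lower sum came mostly from Notch3 (means, pHe6.6 first, 337 against 40.9 CPM) and Ndufa4l2 (128 against 13.8 CPM). Cnn1 (29.1 against 132 CPM), Mcam (39.5 against 99.2 CPM) and Rgs5 (4.09 against 12.8 CPM) rose toward pHe7.4. The sum thus gives no common direction of these markers. The part of pericytes in the change of Kcnj8 was not tested.

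Kcnj4 was at 2.2, 2.04 and 1.75 CPM at pHe6.6 and at 0.831, 0.890 and 0.976 CPM at pHe7.4 (log2 fold change -1.15, SE 0.21, adjusted p = 0.0033). The replicates were tight and the groups did not overlap. Kcnj10, known from glial potassium buffering, was at 0.678, 0.660 and 1.02 CPM at pHe6.6, which are 20, 23 and 34 counts. At pHe7.4 it was at 0.252, 0.254 and 0.237 CPM, or 10, 8 and 8 counts (log2 fold change -1.66, SE 0.33, adjusted p = 0.0047). Kcnj10 was thus rare in both groups and was kept by the filter through its pHe6.6 libraries.

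Of 7 tandem-pore genes, Kcnk3 and Kcnk12 were higher at pHe7.4, Kcnk6, Kcnk13 and Kcnk2 were higher at pHe6.6, and Kcnk1 and Kcnk5 did not pass the test. Kcnk3 had the largest difference. Kcnk1, the most abundant of these genes per length over both groups, had the widest spread at pHe6.6. The sums of the class overlapped, at 25.8 to 40.8 CPM and 33.3 to 39.3 CPM.

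Kcnk3 encodes the acid-sensitive channel TASK-1 (ENSMUSG00000049265, chromosome 5, 30588170 to 30625271). It was at 0.576, 0.316 and 0.362 CPM at pHe6.6 and at 1.91, 1.37 and 3.22 CPM at pHe7.4 (log2 fold change 2.38, SE 0.41, adjusted p = 0.0022). It was rare at pHe6.6, with 11 to 17 counts per library, and all pHe7.4 libraries were higher. Kcnk5, which encodes TASK-2, another channel that is closed by extracellular acid, was at a log2 fold change of 0.40 (adjusted p = 0.19), with 2.95, 5.48 and 4.07 CPM at pHe6.6 and 4.94, 6.39 and 5.20 CPM at pHe7.4. Here the groups overlapped, and Kcnk5 passed only when replicate B of pHe6.6 was left out (0.65, adjusted p = 0.037). Kcnk12, which encodes the silent subunit THIK-2, was at 0.237, 0.574 and 0.241 CPM at pHe6.6 and at 0.881, 0.667 and 0.858 CPM at pHe7.4 (log2 fold change 1.17, SE 0.40, adjusted p = 0.041). Its call rested on few counts (7 to 35 per library) and was lost without replicate A of pHe6.6 (adjusted p = 0.101) or C (0.126), without replicate A of pHe7.4 (0.104), B (0.059) or C (0.101) and with DESeq2 (0.068), while the log2 fold change was 1.74 without replicate B of pHe6.6.

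Kcnk6, which encodes TWIK-2, was at 11.6, 11.9 and 16.4 CPM at pHe6.6 and at 7.86, 6.58 and 6.33 CPM at pHe7.4 (log2 fold change -0.94, SE 0.16, adjusted p = 0.0024). It was the most abundant of the tandem-pore genes that were higher at pHe6.6, per length. Kcnk13, which encodes THIK-1, a channel known from microglia, was at 4.54, 4.59 and 5.51 CPM at pHe6.6 and at 1.99, 3.24 and 3.40 CPM at pHe7.4 (log2 fold change -0.77, SE 0.23, adjusted p = 0.024). Replicate C was the highest pHe6.6 library for both genes, and without it Kcnk13 did not pass (adjusted p = 0.080). That library also had the highest sum of 12 macrophage markers, at 1130 CPM, against 577 and 678 CPM in the other pHe6.6 libraries. At pHe7.4 the sum was 537, 822 and 703 CPM, and its highest library, B, was the highest for neither gene. Of the 12 markers, 1 was higher and 4 were lower at pHe7.4 than at pHe6.6. Lyz2, at 455 CPM in replicate C of pHe6.6, did not pass the test. The part of macrophages in these values was not tested. Kcnk2 encodes TREK-1, which responds to stretch and to protons. It was at 4.2, 7.14 and 4.58 CPM at pHe6.6 and at 2.90, 1.94 and 3.84 CPM at pHe7.4 (log2 fold change -0.87, SE 0.30, adjusted p = 0.041). Replicate B was the highest at pHe6.6 and the lowest at pHe7.4. The call for Kcnk2 was lost without replicate B of pHe6.6 (-0.60, adjusted p = 0.115) or C (0.063), without replicate A of pHe7.4 (0.102) or B (0.104), and in limma-voom (0.054).

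Kcnk1, which encodes TWIK-1 (chromosome 8, 125995170 to 126030685), was at 1.66, 10.8 and 5.75 CPM at pHe6.6 and at 18.8, 13.1 and 15.7 CPM at pHe7.4. The groups did not overlap and the pHe6.6 libraries were wide apart, and the gene did not pass the test (log2 fold change 1.38, SE 0.59, adjusted p = 0.097). It passed without replicate A of pHe6.6 (0.93, adjusted p = 0.031), without replicate B of pHe6.6 (2.08, adjusted p = 0.018) and in limma-voom (1.69, adjusted p = 0.0072). The sum of 4 ductal markers (Krt7, Epcam, Sox9 and Cftr) put the 6 libraries in the same order. It was 51.6, 168 and 106 CPM in pHe6.6 replicates A, B and C and 380, 293 and 315 CPM at pHe7.4. Krt7 and Epcam each had this order, and Sox9 and Cftr did not. Krt8, Krt18 and Krt19, keratins of the mesothelial list, had it too, and the other genes of that list did not. These keratins do not set mesothelial cells apart from ductal cells, and the study stained CK19 (Krt19) for ductal and tumour cells. Krt8 and Krt18 had the highest means of the mesothelial list at pHe7.4 (374 and 414 CPM). Of the 4 ductal markers, 2 were higher at pHe7.4 by the test. The 14 mesothelial markers summed to 248, 591 and 506 CPM at pHe6.6 and to 1368 to 1502 CPM at pHe7.4, with 9 higher at pHe7.4, 1 higher at pHe6.6 and Calb2 at 0 in 5 of 6 libraries. The part of these cells in the level of Kcnk1 was not tested.

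**Figure D4:**
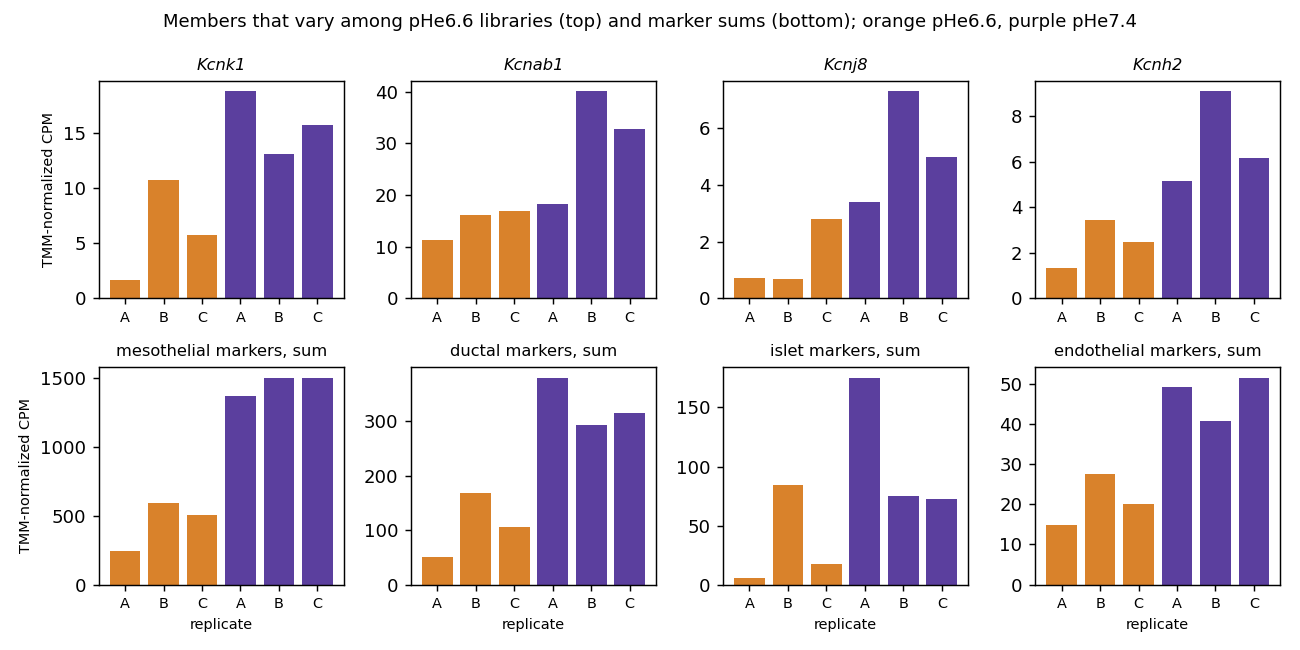
TMM-normalized CPM in each library (bars, axes from 0) of Kcnk1, Kcnab1, Kcnj8 and Kcnh2 in the upper row and of summed mesothelial, ductal, islet and endothelial markers in the lower row, with orange for pHe6.6 and purple for pHe7.4. Replicate A at pHe6.6 is the lowest library for Kcnk1 (1.66 CPM), Kcnab1 (11.2 CPM), Kcnh2 (1.32 CPM) and all 4 marker sums.

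Of 6 calcium-activated and Slo-type channels, Kcnn4 was higher at pHe7.4, and Kcnn1, Kcnn3 and Kcnt2 were higher at pHe6.6. The intermediate-conductance channel and the small-conductance channels of the same gene family thus moved in opposite directions. Kcnma1 and Kcnu1 did not pass the test. The 6 genes summed to 26.2 to 28.02 CPM at pHe6.6 and to 20.3 to 24.2 CPM at pHe7.4.

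Kcnn4 encodes KCa3.1, a channel known to take part in the migration of fibroblasts and many tumour cells (chromosome 7, 24370263 to 24386690). It was at 4.54, 7.97 and 5.94 CPM at pHe6.6 and at 10.9, 10.8 and 8.22 CPM at pHe7.4 (log2 fold change 0.69, SE 0.22, adjusted p = 0.029). Replicate B at pHe6.6 came close to replicate C at pHe7.4. Kcnn4 did not pass without replicate A of pHe6.6 (0.51, adjusted p = 0.061) or C (0.092), or without replicate A of pHe7.4 (0.086) or B (0.090). Per length it was the most abundant gene of this class.

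Kcnn1, which encodes the small-conductance channel SK1, was at 4.44, 4.33 and 4.64 CPM at pHe6.6 and at 2.07, 1.75 and 2.42 CPM at pHe7.4 (log2 fold change -1.10, SE 0.18, adjusted p = 0.0015). The pHe6.6 libraries were nearly equal. Kcnn3, which encodes SK3, was at 9.56, 6.11 and 9.34 CPM at pHe6.6 and at 4.36, 2.29 and 4.35 CPM at pHe7.4 (log2 fold change -1.18, SE 0.28, adjusted p = 0.011). Replicate B was the lowest library in both groups. Kcnt2, which encodes the sodium-activated channel Slo2.1, differed less, at 6.39 ± 0.228 and 4.51 ± 0.544 CPM (SD, n = 3, log2 fold change -0.50, SE 0.14, adjusted p = 0.018). Kcnma1, the pore of the large-conductance BK channel, was rare, at 0.557 ± 0.0816 and 0.815 ± 0.175 CPM (SD, n = 3, log2 fold change 0.56, adjusted p = 0.14). Kcnu1 encodes Slo3, the alkalinization-activated channel of mouse sperm, and was at a log2 fold change of -0.53 (adjusted p = 0.17). Without replicate B of pHe6.6 it passed (-0.76, adjusted p = 0.041).

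Of 8 accessory subunits, 1, Kcnab1, was higher at pHe7.4 and 7 did not pass the test. In those 7 the groups overlapped, as did the sums of the class (66.3 to 85.7 CPM at pHe6.6 and 84.4 to 102.1 CPM at pHe7.4). The log2 fold changes of Kcne4 (0.16, SE 0.11), Kcnab2 (-0.20, SE 0.13) and Kcnip3 (0.02, SE 0.15) had small errors. Kcne4 passed without replicate B of pHe6.6 (0.28, adjusted p = 0.037).

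Kcnab1 encodes a beta subunit that speeds the inactivation of Kv1 channels. It was at 11.2, 16.1 and 17.0 CPM at pHe6.6 and at 18.3, 40.1 and 32.8 CPM at pHe7.4 (log2 fold change 1.03, SE 0.31, adjusted p = 0.033). Replicate A was the lowest in both groups, and in the pHe7.4 group it lay close to the pHe6.6 libraries. The call was lost without replicate A of pHe6.6 (adjusted p = 0.052), B (0.062) or C (0.069), without replicate B of pHe7.4 (0.084) or C (0.083), and with no filter (0.136). Kcne4, on chromosome 1, was at 35.9, 47.0 and 38.1 CPM at pHe6.6 and at 48.7, 41.2 and 45.0 CPM at pHe7.4, with groups that overlapped (adjusted p = 0.28). Kcnmb1, the smooth muscle beta subunit of BK channels, was at 1.22, 3.5 and 1.45 CPM at pHe6.6 and at 1.91, 1.56 and 1.83 CPM at pHe7.4 (log2 fold change -0.22, adjusted p = 0.66). Its high value in replicate B of pHe6.6 set the sign, since the log2 fold change was 0.41 without that library (adjusted p = 0.20). Kcnip1 was listed at 0, 16 and 8 counts at pHe6.6 and at 6, 32 and 30 counts at pHe7.4 and did not pass (log2 fold change 1.46, SE 0.95, adjusted p = 0.24). Its value was 2.38 without replicate B of pHe6.6, 0.92 without replicate A of pHe6.6 and 1.97 without replicate A of pHe7.4, and it passed in none of these. Kcnab3 and Kcne1l had log2 fold changes of -0.01 and -0.62 and did not pass.

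Kcnq1ot1, a long non-coding RNA that runs antisense to Kcnq1 and silences neighbouring imprinted genes in cis, was at 1.93, 2.55 and 2.56 CPM at pHe6.6 and at 5.06, 4.32 and 5.32 CPM at pHe7.4 (chromosome 7, 143203458 to 143296549). Its log2 fold change was 1.06 (SE 0.18, adjusted p = 0.0021), with no overlap between the groups. The exons of 19 members overlap a gene on the other strand, those of Kcnq1 and Kcnq1ot1 each other, and Kcnab2 overlaps a gene on its own strand. The strand setting of the counting is not given in the sources used here, so that reads of such partners may not have been kept apart. Kcnh3, Kcnj15, Kcnk1, Kcnk2, Kcnk3, Kcnn1, Kcnq5, Kcnt2 and Kcnab1 are among these 19.

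Genes that work with potassium channels but carry other names also included calls in both directions. Of 25 such genes, 20 were tested, of which 6 rose toward pHe7.4 and 5 toward pHe6.6, a share near the 52.3% of all genes that passed. The former held Calm2 (log2 fold change 0.30, adjusted p = 0.016), which encodes calmodulin, the calcium sensor of the Kcnn channels. Also among them were Sgk1 (0.70), a kinase that raises channel abundance at the membrane, the anchoring protein Akap5 (2.58), Lrrc55 (1.31), an accessory subunit of BK channels, and the pacemaker channel Hcn3 (1.39). Besides Amigo1, the genes higher at pHe6.6 were Tmem38b (-0.86), a cation channel of the endoplasmic reticulum, the lysosomal potassium channel Tmem175 (-0.52), the ubiquitin ligase Nedd4l (-0.35) and Dpp6 (-0.72), an accessory subunit of Kv4 channels. Calm3 did not pass (0.04, adjusted p = 0.73).

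Within the groups, libraries did not vary in the same way for all members. Among the 14 members higher at pHe7.4, replicate A was the lowest pHe6.6 library for 8, replicate B for 4 and replicate C for 2. Replicate A was also the lowest pHe6.6 library for 12 of the 18 members not called and for 23 of all 43. Among the 11 members higher at pHe6.6, replicate B was the lowest pHe6.6 library for 6 and the lowest pHe7.4 library for 6. Replicate B was also the lowest pHe7.4 library for 8 of the 14 members higher at pHe7.4 and for 21 of all 43. The median coefficient of variation over the 43 members was 26.1% at pHe6.6 and 21.4% at pHe7.4.

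A further 56 genes with Kcn symbols were in the count table and did not reach the level for testing. Of these, 10 had no count in any library, 43 had 1 to 30 counts in all libraries together and 3 had more. The 3 were Kcna3, the Kv1.3 channel of T cells, with 7, 7 and 21 counts at pHe6.6 and 17, 11 and 14 counts at pHe7.4, Kcnip4 with 53 counts in total, and Kcnj14. Kcnj14, which encodes Kir2.4, had 1, 1 and 2 counts in the pHe6.6 libraries and 11, 10 and 20 counts at pHe7.4. The highest level that any of the 56 genes reached in a library was 0.626 CPM before TMM scaling. Differences in these genes were not tested at this depth.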

How the data were processed

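Poly(A)-enriched RNA of 3 libraries per pHe was sequenced as single reads with a directional kit. The authors aligned the reads to mm10 with HISAT2 2.2.1 and deposited raw counts per Ensembl gene from featureCounts 2.0.1. A sheet with the authors' limma 3.50.1 comparison (log2 fold changes, p-values) was used only for gene symbols. The test covered the 15197 of 49671 genes that reached 0.5 CPM in 2 or more libraries, the study's own filter. The robust quasi-likelihood test of edgeR 4.0.16 (R 4.3.3) was run on them with TMM factors of 0.927 to 1.09 and no covariate. Benjamini-Hochberg adjustment covered the whole table, and calls had an adjusted p under 0.05. Standard errors were derived from the log2 fold change and its F statistic. The fit was tested on simulated data. Alternatives were other factors (RLE, upper quartile), other filters (none, or 1 CPM in 3 libraries), DESeq2 1.42.0, limma-voom (limma 3.58.1) with sample weights, a replicate block and leaving out each library. The labels call the libraries biological replicates and name no mouse. The study gives 3 mice for this sequencing and does not say which mouse gave which library. The p-values measure the spread between these libraries. Exon lengths and positions are those of GENCODE vM21 (GRCm38, the assembly of mm10), and promoter windows (31 of 43 members matched) are those of RefSeq. Members and lists were chosen with earlier results of these data known. Values per library are given for each member past the test and an absolute log2 fold change of 0.58 and for the most abundant member per length of each class, and other members mostly by single values. Kcnk5, Kcnmb1, Kcnip1 and the partner Abcc9 are also given per library. They, the partner Abcc8, Kcna3, Kcnj14 and members lost or gained under an alternative were named after their values were seen. Of the members 3, and 1 gene of the partner list, are counted in the totals and not reported here by name.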

Additional observations from a re-analysis of the deposited data

How the results depend on the processing

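Of the 25 members called, 15 passed in every alternative in which they were tested (among them Kcnh2, Kcnh3, Kcnj15, Kcnj2, Kcnj4, Kcnj10, Kcnk3, Kcnk6, Kcnn1, Kcnn3, Kcnt2 and Kcnq1ot1) and 10 were lost in at least 1. Of those not called, 6 passed in at least 1. The number of members higher at pHe7.4 was 11 to 15 under the other settings and 9 to 15 when 1 library was left out (9 without pHe7.4 replicate B or C), and that higher at pHe6.6 was 10 to 11 and 8 to 12. The median log2 fold change of the members was 0.165 with a filter of 1 CPM in 3 libraries, where 31 members were tested, 0.145 in limma-voom and -0.0195 to 0.282 without 1 library. No called member changed direction. Among members not called, Kcnab3 (-0.01) was at 0.0192 with upper-quartile factors, 0.0071 in limma-voom and -0.11 to 0.12 without 1 library, Kcnip3 (0.02) at -0.0065 in limma-voom and -0.0636 to 0.0705, Kcnmb1 (-0.22) at 0.145 in limma-voom and -0.49 to 0.41, Kcnd3 (-0.17) at -0.50 to 0.25 and Kcnh7 (-0.29) at -0.557 to 0.0898. The causes were not tested. Between libraries of the same letter, the correlations of deviations were -0.06, -0.00037 and 0.23 for A, B and C. With 3 libraries per group they cannot show whether such libraries share a mouse, and the labels do not say. A replicate block called 14 members toward pHe7.4 and 10 toward pHe6.6, losing Kcnk12 (adjusted p = 0.073) and Kcnk2 (0.093) and gaining Kcnip1 (1.65, adjusted p = 0.044), and no other member's call changed. Among the members called, Kcnk12 rested on 7 to 35 counts per library and Kcnj10 on 8 to 34.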
